A study of Ovis aries with 8 samples.

Results

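Growth hormone (GH), prolactin (PRL) and POU1F1 were read on the array by 6 probes of 15008, 2 for each gene, chosen as every probe whose name or description on the array names one of these genes. The probes measured RNA of the whole pituitary of 8 late-gestation fetal sheep, 1 array per fetus, hybridised in a single colour. The hypoxia group held 4 fetuses of 129 to 132 days, whose ewes received nitrogen through a tracheal catheter for 30 min, and the normoxia group held 4 fetuses of 123 to 129 days handled for as long without nitrogen. All 8 were chronically catheterised, came from twin pregnancies with 1 fetus of each used, and were killed 60 min after the onset. Each group had 3 males and 1 female. The lobes were not separated, and 1 of the protocols in the labels names the hypothalamus where every other label names the pituitary.

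GH and PRL are protein hormones of one family, made by the somatotrophs and lactotrophs of the anterior lobe. POU1F1, also called Pit-1, is the POU-homeodomain transcription factor that these cells and the thyrotrophs need to form, and it binds and activates the GH and PRL genes. GHRH from the hypothalamus drives GH release and somatostatin restrains it, while PRL is mainly under restraint by dopamine. Both hormones signal through cytokine receptors that activate JAK2 and STAT5, and GH raises IGF1 in many tissues.

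The probe sequences are shown because they decide how independent the readings of each gene are. The GH probes overlap in all but 1 base, so they are close to a repeat of the same reading. The capitals mark the 59 shared bases, and positions on the array's target sequence run from 501 to 560 for A_70_P039746 and from 500 to 559 for A_70_P039747.
GH A_70_P039746: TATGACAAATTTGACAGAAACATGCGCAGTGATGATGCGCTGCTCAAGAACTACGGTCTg
GH A_70_P039747: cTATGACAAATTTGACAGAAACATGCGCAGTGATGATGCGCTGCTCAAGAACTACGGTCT

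The POU1F1 probes do not overlap. They lie end to end on their target, at 755 to 814 for A_70_P039252 and 815 to 874 for A_70_P039251, so they are separate readings of neighbouring stretches of 1 mRNA. No letters are marked in them.
POU1F1 A_70_P039252: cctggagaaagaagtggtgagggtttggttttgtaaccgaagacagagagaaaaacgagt
POU1F1 A_70_P039251: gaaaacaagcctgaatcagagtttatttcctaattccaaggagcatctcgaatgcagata

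The PRL probes share 20 bases, acttctctgagctttatagc, and differ in the rest. PRL has close relatives on the array, the placental lactogen gene (CSH1 here) and the prolactin-related proteins PRP1 and PRP2. In the sheep RefSeq annotation the genes listed before PRL are LOC105601864, LOC443319 and LOC101110459. Whether any of them is the gene this array calls placental lactogen was not determined here. PRL probe A_70_P030241 matched the placental lactogen probe in 36 of 47 aligned bases and a PRP1 probe in 35 of 54, with the longest identical runs 11 and 18 bases long. The other PRL probe, A_70_P030242, matched no relative's probe in a run longer than 5 bases. The stretches of 30 bases where the relatives come closest to A_70_P030241 are given with identical bases in capitals, 26 in each pair.
PRL A_70_P030241, facing placental lactogen: TATAGCTtTTTAATGCATGcTTGGcTCTaA
placental lactogen A_70_P030321: TATAGCTaTTTAATGCATGtTTGGgTCTtA
PRL A_70_P030241, facing PRP1: CTTCTcTGAgcTTTAtAGCTTTTTAATGCA
PRP1 A_70_P039751: CTTCTtTGAaaTTTAcAGCTTTTTAATGCA

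Facts of the whole set frame these readings. The median spot signal was 229.5 to 294.9 by array in hypoxia and 309.1 to 380.5 in normoxia, so the hypoxia arrays were the dimmer ones throughout. Slides 1 and 2 held both groups in equal number. The hypoxia fetuses were older on average, at 130.8 ± 1.26 days against 126.5 ± 2.65 (SD, n = 4 each, two-sided p = 0.0571 by exact permutation). Arrays were put on a common scale by quantile normalization, which gives the spot of each brightness rank nearly the same value on every array. Differences are hypoxia minus normoxia on the log2 scale. A probe is called at an unadjusted limma p of 0.05 or below. Of 13070 retained probes 18.1% were called, 8.29% higher and 9.76% lower, and the groups did not overlap for 9.95%. A single probe, or 0.00765%, passed after Benjamini-Hochberg adjustment.

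None of the 6 probes was called. All 6 differences lay between -0.091 and 0.030, and the 4 hypoxia values overlapped the 4 normoxia values for each probe, where the background was 18.1% called and 9.95% not overlapping. In a bulk sample such as this, fewer cells of a type and less RNA per cell cannot be told apart. The normalized values do not carry this alone, because the GH and PRL probes sat near the scanner's upper limit and at the top brightness ranks. So the raw signals come first, then the values on each scale.

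The raw signal of GH probe A_70_P039746, the mean of 5 spots, was 503736, 499759, 468271 and 474204 on hypoxia replicates 1 to 4. On normoxia replicates 1 to 4 it was 624613, 478804, 524823 and 466028. Normoxia replicate 1 was the highest of the 8 and the other 7 arrays intermingled. For A_70_P039747, spotted once, the hypoxia signals were 487701, 517948, 516626 and 538020, and the normoxia signals 655031, 497216, 543277 and 482838. Here too normoxia replicate 1 stood highest and the rest overlapped. The raw log2 difference was -0.097 for A_70_P039746 (exact permutation test, two-sided, n = 4 each, p = 0.457) and -0.071 for A_70_P039747 (same exact test, p = 0.686). Leaving out normoxia replicate 1 brought these to -0.0089 and 0.022.

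PRL probe A_70_P030241, also 5 spots, gave 530720, 495371, 430491 and 466210 on the hypoxia arrays and 628835, 520553, 524474 and 484693 on the normoxia arrays. The groups overlapped, with hypoxia replicate 3 lowest and normoxia replicate 1 highest. The single spot of A_70_P030242 gave 439667, 438477, 359467 and 456421 in hypoxia and 511643, 380989, 474906 and 474355 in normoxia. Hypoxia replicate 3 was again the lowest array and normoxia replicate 1 the highest. The raw log2 differences were -0.16 (exact permutation test, two-sided, n = 4 each, p = 0.2) and -0.12 (exact test, p = 0.371). Leaving out each array in turn, the first ran from -0.21 (without normoxia replicate 4) to -0.088 (without normoxia replicate 1), and the second from -0.21 (without normoxia replicate 2) to -0.042 (without hypoxia replicate 3).

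POU1F1 signals were far below the limit, at 0.344% to 0.813% of the saturation value. Probe A_70_P039252 gave 4477, 4103, 2937 and 2996 on hypoxia replicates 1 to 4 and 5327, 4958, 4522 and 5001 on normoxia replicates 1 to 4. On this raw scale every hypoxia array lay below every normoxia array, as did 27.2% of all retained probes. Probe A_70_P039251 gave 3456, 3754, 2538 and 2249 in hypoxia and 4102, 3462, 3815 and 4434 in normoxia, where hypoxia replicate 2 lay above normoxia replicate 2. The raw log2 differences were -0.47 (exact permutation test, two-sided, n = 4 each, p = 0.0286, below which no split of the 8 arrays can go) and -0.42 (exact test, p = 0.0571). Hypoxia replicates 3 and 4 gave the lowest raw values on both probes, and replicates 1 and 2 lay closer to the normoxia arrays. The median raw log2 difference of all retained probes was -0.29, and 93.02% of them were lower in hypoxia. The part of array brightness in the raw POU1F1 values was not tested.

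**Figure D1:**
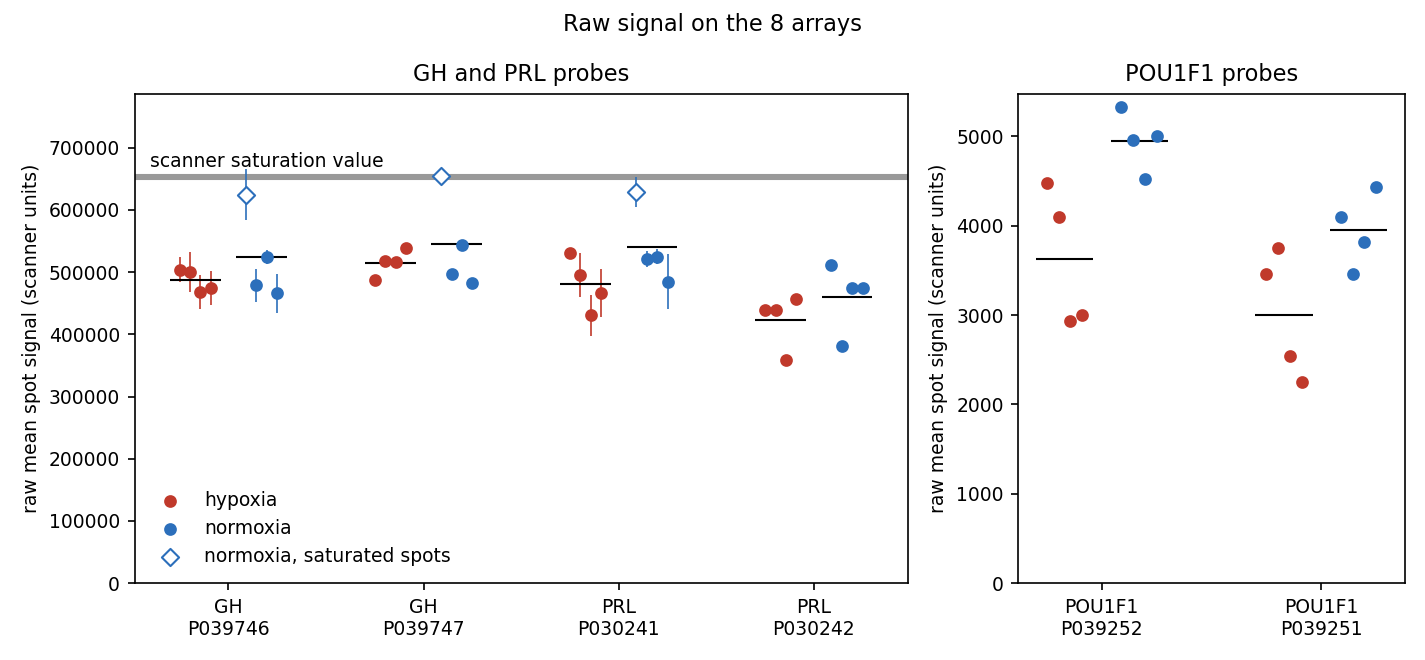
Raw mean spot signal (scanner units, linear vertical axes from 0) of the GH and PRL probes, left, and the POU1F1 probes, right, on 4 hypoxia (red) and 4 normoxia (blue) arrays, with black lines at group means, thin bars for the SD over the 5 spots where a probe has 5, and a grey band at the scanner's saturation values. The open diamonds, which hold the 9 saturated spots, are all normoxia replicate 1, and the hypoxia and normoxia points overlap for every probe except POU1F1 A_70_P039252.

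Saturation fell on 1 array. Of all spots on the 8 arrays, 9 were flagged as saturated, and each belonged to GH or PRL on normoxia replicate 1. They were 3 of the 5 spots of GH A_70_P039746, the single spot of GH A_70_P039747 and all 5 spots of PRL A_70_P030241, while PRL A_70_P030242 had none. The saturation value was 649829 to 655851 by array, reached by reading bright spots at a low gain and scaling them up about 10 times (9.93 to 10.02 by array). The highest signal, of A_70_P039747 on normoxia replicate 1, was 100.02% of that value, and the lowest, of A_70_P030242 on hypoxia replicate 3, was 55.3%. A saturated spot gives a lower bound on its signal, so the GH and PRL readings of normoxia replicate 1 can be too low but not too high. The other 7 arrays held no saturated spot.

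GH and PRL were at the top of every array. By raw signal GH A_70_P039747 ranked 1 to 3 among 15008 probes, GH A_70_P039746 ranked 2 to 4, PRL A_70_P030241 ranked 1 to 5 and PRL A_70_P030242 ranked 3 to 8. The order of the saturated probes on normoxia replicate 1 is not determined, so no test was made on the ranks. The POU1F1 probes ranked 1557 to 2236 and 1772 to 2479. Over the 5 spots the coefficient of variation had a median of 5.81% for GH A_70_P039746 (2.18% to 6.66% by array) and 5.49% for PRL A_70_P030241 (1.25% to 9.06%), while between arrays of a group it was 3.67% and 13.7% for GH in hypoxia and normoxia and 8.87% and 11.5% for PRL. The first is a spread of single spots and the second a spread of array means over 5 spots, so they are not on a like footing.

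After quantile normalization the GH values lay between 18.88 and 19.07. A_70_P039746 was 18.93, 18.95, 18.97 and 18.95 in hypoxia and 18.95, 18.88, 18.96 and 18.93 in normoxia. A_70_P039747 was 18.89, 18.99, 19.07 and 19.07 in hypoxia and 19.03, 18.94, 19.03 and 18.98 in normoxia. The groups overlapped on both probes. The differences were 0.018 (SE 0.06, adjusted p = 0.908 by limma, exact permutation p = 0.429) and 0.0089 (SE 0.07, adjusted p = 0.963, exact p = 0.971). Their 95% intervals, as folds of hypoxia over normoxia, ran from 0.918 to 1.12 and from 0.900 to 1.13. These intervals hold on the quantile scale only. That scale gives the top ranks nearly the same value on every array, so they do not bound the change in GH RNA.

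PRL A_70_P030241 was 19.01, 18.93, 18.86 and 18.94 in hypoxia and 18.94, 19.02, 18.94 and 18.96 in normoxia, with overlap. A_70_P030242 was 18.70, 18.70, 18.58 and 18.94 in hypoxia and 18.58, 18.58, 18.70 and 18.94 in normoxia. These last 8 values fall on 3 levels, and the probe held rank 7 on 3 arrays, rank 8 on another 3 and rank 3 or 4 on the rest. The normalization ranks single spots before they are averaged, so these probe ranks are not the ranks it used. The differences were -0.031 (SE 0.07, adjusted p = 0.844 by limma, exact permutation p = 0.343) and 0.030 (SE 0.11, adjusted p = 0.911, exact p = 0.771). Their intervals were 0.881-fold to 1.09-fold and 0.860-fold to 1.21-fold, with the same limit as those of GH. In the log2 table the authors deposited, this probe likewise has 4 distinct values on the 8 arrays, one of them on 4 arrays.

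POU1F1 A_70_P039252 was 12.22, 12.18, 11.59 and 11.97 in hypoxia and 11.88, 12.33, 12.02 and 12.09 in normoxia. A_70_P039251 was 11.86, 12.07, 11.38 and 11.55 in hypoxia and 11.54, 11.83, 11.78 and 11.90 in normoxia. Hypoxia replicate 3 gave the lowest value on both probes, and the other 7 arrays overlapped. The differences were -0.091 (SE 0.15, adjusted p = 0.788 by limma, exact permutation p = 0.629) and -0.048 (SE 0.15, adjusted p = 0.898, exact p = 0.857), with intervals from 0.742-fold to 1.19-fold and from 0.765-fold to 1.22-fold. Without hypoxia replicate 3 they were 0.042 and 0.063.

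The gap between both probes of a gene varied over the arrays, most for PRL. The log2 value of A_70_P039747 minus that of A_70_P039746 was 0.06 ± 0.05 over the arrays for GH (SD, n = 8), from -0.042 to 0.12. A_70_P030242 minus A_70_P030241 was -0.23 ± 0.16 for PRL, from -0.44 to 0.0025, and A_70_P039252 minus A_70_P039251 was 0.30 ± 0.13 for POU1F1, from 0.11 to 0.50 (SD, n = 8 each). By group the gaps were 0.055 and 0.064 for GH, -0.20 and -0.26 for PRL and 0.27 and 0.32 for POU1F1 in hypoxia and normoxia. Within slide 1 and slide 2, with 2 arrays against 2, the GH differences were 0.036 and -0.00018 for A_70_P039746 and -0.0087 and 0.026 for A_70_P039747. The PRL differences were -0.047 and -0.014 for A_70_P030241 and 0.060 and 0.00026 for A_70_P030242, and those of POU1F1 were -0.20 and 0.019 for A_70_P039252 and -0.067 and -0.029 for A_70_P039251. On the quantile scale no difference between slides was detected for the 6 probes (limma interaction of hypoxia and slide, lowest adjusted p = 0.887).

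The result for GH depended on how the arrays were scaled. With each array shifted to a common 75th percentile, which moves all probes of an array alike and leaves the top ranks free, both GH probes were called higher. On that scale A_70_P039746 was 8.58, 8.69, 8.48 and 8.85 log2 units over the percentile in hypoxia and 8.39, 8.47, 8.41 and 8.20 in normoxia. A_70_P039747 was 8.54, 8.75, 8.63 and 9.04 in hypoxia and 8.46, 8.52, 8.46 and 8.25 in normoxia. Every hypoxia array lay above every normoxia array on both probes, and 3.89% of all probes did the same. The margins were narrow, with the nearest arrays at 8.48 and 8.47 for A_70_P039746 and at 8.54 and 8.52 for A_70_P039747. Normoxia replicate 1, at 8.39 and 8.46, held saturated spots, so its values are lower bounds. The separation and the exact permutation p of both probes are therefore not determined, and the differences can be too large. The differences were 0.29 (SE 0.11, limma p = 0.0299, adjusted p = 0.278, exact permutation p = 0.0286) and 0.31 (SE 0.13, limma p = 0.0329, adjusted p = 0.287, exact p = 0.0286), where 7.36% of all probes were called higher and 7.51% lower. Within slide 1 and slide 2, with 2 arrays against 2, the scaled differences were 0.10 and 0.47 for A_70_P039746 and 0.089 and 0.53 for A_70_P039747. The larger values were on slide 2 for both probes, and the difference between slides, 0.36 and 0.45, was not called for either. Neither GH difference passed adjustment over all probes, and no probe on the array did on this scale by limma, with 962 and 981 called higher and lower unadjusted.

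On the same scale the PRL differences were 0.22 (adjusted p = 0.442 by limma, exact permutation p = 0.114) for A_70_P030241 and 0.26 (adjusted p = 0.413, exact p = 0.171) for A_70_P030242, neither called. Within slide 1 and slide 2 they were 0.013 and 0.42 for A_70_P030241 and 0.12 and 0.41 for A_70_P030242. Those of POU1F1 were -0.091 for A_70_P039252 and -0.045 for A_70_P039251 (exact permutation p = 0.657 and 0.829). PRL values overlapped between the groups on both probes. The scanner's processed signal, scaled to the same percentile, gave 0.31 and 0.35 for GH, both called (limma adjusted p = 0.239 and 0.218), 0.23 and 0.32 for PRL, neither called, and -0.089 for POU1F1 A_70_P039252 and -0.065 for A_70_P039251. Of 13806 probes tested with that signal, 938 were called higher. Leaving out normoxia replicate 1, the array with the saturated spots, kept both GH calls, at 0.29 and 0.32, on the 75th percentile scale. There 955 of 12890 probes were called higher, and the GH probes are close to a repeat of the same reading. Without any normalization the GH differences turned to -0.097 and -0.071. POU1F1 was called lower on both probes, at -0.47 (limma adjusted p = 0.0477) for A_70_P039252 and -0.43 (adjusted p = 0.0775) for A_70_P039251, on a scale where 44.7% of all probes were called lower, 0.26% were called higher and the median of all probes was -0.33.

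**Figure D2:**
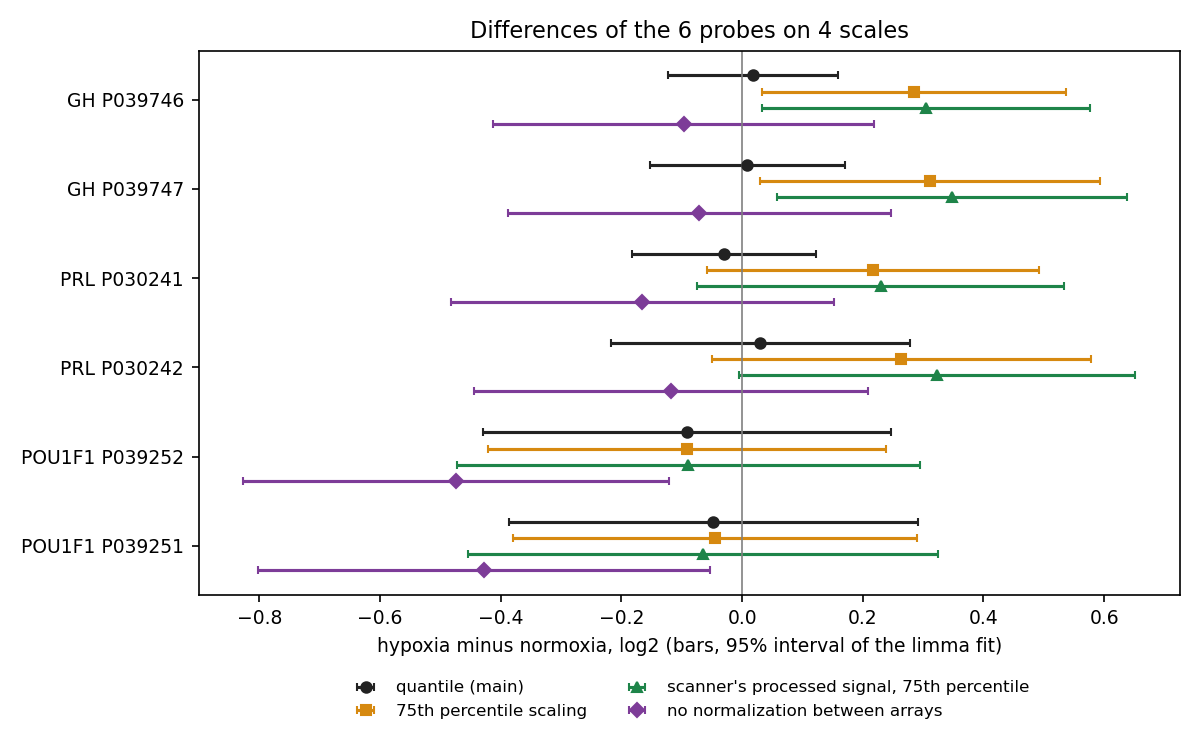
Hypoxia minus normoxia on the log2 scale (horizontal axis) for the 6 probes on 4 scales, with 95% intervals of the limma fit as bars and a grey line at 0. The black quantile points lie within 0.10 of 0 for all 6 probes, the 75th percentile points of GH lie at 0.29 and 0.31 with intervals above 0, and the unnormalized POU1F1 points lie at -0.47 and -0.43.

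GH shared this dependence with other bright probes. The raw difference between the groups varied with brightness. Its median was -0.077 for probes of log2 signal 5 to 7, -0.32 at 7 to 9 and -0.38 at 9 to 11. Above 11 it shrank, from -0.38 at 11 to 13, where POU1F1 lies, to -0.30 at 15 to 16, -0.21 at 16 to 17, -0.17 at 17 to 18 and -0.15 for the 19 other probes of 18 and above. GH lay at -0.097 and -0.071 and PRL at -0.16 and -0.12, and the 19 other probes of the brightest class ranged from -0.28 to -0.0060. With 75th percentile scaling all 19 of those probes were higher in hypoxia, with a median of 0.24, and 8 of them, or 42.1%, were called higher, against 7.36% of all probes. After quantile normalization 0 of the 19 were called. The brightest of them was POMC, the corticotroph and melanotroph hormone precursor, whose 2 probes differed by 0.26 and 0.30 with the scaling and by 0.019 and 0.0080 after quantile normalization. The part of signal brightness in the GH differences was not tested.

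**Figure D3:**
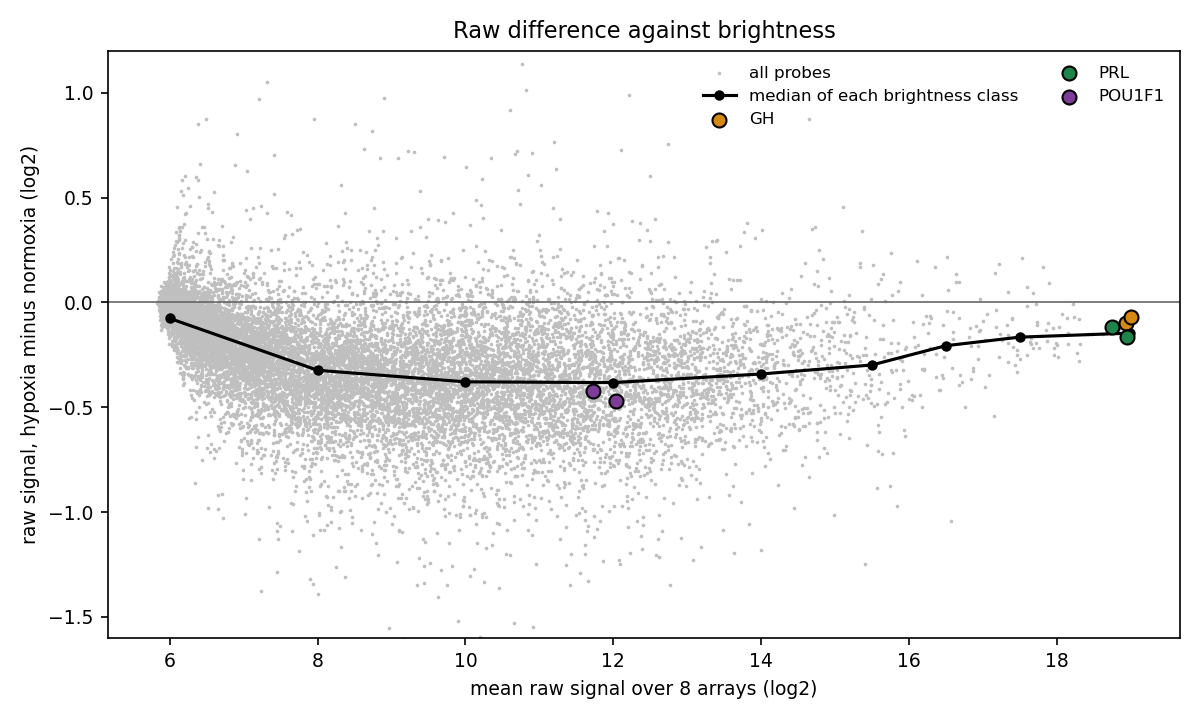
Raw log2 signal, hypoxia minus normoxia (vertical axis), against the mean raw log2 signal over the 8 arrays (horizontal axis) for all probes (grey; 26 lie outside the drawn range), with the median of each brightness class in black. The POU1F1 probes (purple) lie near the class median of -0.38, and GH (orange) and PRL (green) lie at the bright end, where the median is -0.15.

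Of the 8 listed genes of the family and its releasing peptide, 4 had a retained probe beside GH and PRL, with 1 called higher, 0 lower and a median of 0.17. That is 25.0% called, where 18.1% of all probes were called. The called one was PRLH, the prolactin-releasing peptide, which is a regulator and no structural relative. Placental lactogen, a hormone of the placenta, was 10.02, 11.13, 7.24 and 10.70 in hypoxia and 9.62, 9.73, 9.92 and 10.15 in normoxia. PRP1, a placental relative of PRL, was 10.997, 10.53, 7.44 and 9.96 in hypoxia and 9.38, 9.60, 9.01 and 9.86 in normoxia. On both probes hypoxia replicate 3 was far below the other 7 arrays, which spread the hypoxia values around those of normoxia. The differences were -0.082 (SE 0.71, limma adjusted p = 0.965) and 0.27 (SE 0.66, adjusted p = 0.861). Hypoxia replicate 3 was also the lowest array on both PRL probes in raw signal. PRP2 was near background on its retained probe, 6.25 ± 0.11 against 6.18 ± 0.09 (SD, n = 4 each). How far the PRL mRNA itself binds the probes of its relatives was not tested.

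The list of pituitary transcription factors and POU1F1 products also holds factors of other anterior lobe cells. Of its 21 genes, 7 had a retained probe beside POU1F1, with 1 called higher, 1 called lower and a median of -0.18, against 0.0057 for all probes. That is 28.6% called, against 18.1% of all probes. NEUROD1, a basic helix-loop-helix factor of corticotrophs and neuroendocrine cells, was 10.81, 10.70, 10.94 and 10.37 in hypoxia and 11.98, 11.52, 11.92 and 12.42 in normoxia. The groups lay apart, and it fell by 1.26 (SE 0.19, limma adjusted p = 0.0720), with -1.17 on its other probe, and was called lower under all 29 alternatives. ISL1, a LIM-homeodomain factor of thyrotroph and gonadotroph precursors, rose by 0.27 (SE 0.11, limma adjusted p = 0.253) after quantile normalization, but was at -0.13 without normalization. Its call held under 15 of 29 alternatives. It was lost with 75th percentile scaling at 0.25, with gestational age as a covariate at 0.29, and without hypoxia replicate 2 (0.29) or 3 (0.17) or normoxia replicate 2 (0.26) or 4 (0.22).

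GHRHR, the receptor for GHRH on somatotrophs and a direct POU1F1 target, was 11.38, 11.55, 10.68 and 11.24 in hypoxia and 11.88, 10.99, 11.28 and 11.42 in normoxia. The groups overlapped, with a difference of -0.18 (SE 0.22, limma adjusted p = 0.706). TSHB, the thyrotropin beta chain and another POU1F1 product, was 14.82, 14.71, 14.47 and 14.27 in hypoxia and 16.19, 14.28, 14.69 and 14.91 in normoxia. Normoxia replicate 1 alone was above 15, and the difference of -0.45 (SE 0.35, limma adjusted p = 0.543) was -0.063 without it. CGA, the common alpha chain of thyrotropin and the gonadotropins, differed by 0.086 (SE 0.09, limma adjusted p = 0.650). Its other retained probe was called higher at 0.21 (adjusted p = 0.245). The first was called higher with 75th percentile scaling at 0.37, was at -0.010 without normalization, and is itself a bright probe at 17.76 and 17.67 in the groups.

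Of the 37 listed hypothalamic regulators of GH and PRL and their receptors, 22 had a retained probe, of which 6 were called higher and 0 lower, with a median of 0.16. That is 27.3% called, where 18.1% of all probes were called. PRLH was 13.29, 13.64, 13.72 and 13.93 in hypoxia and 13.36, 13.22, 13.03 and 12.47 in normoxia. Its groups overlapped by 1 array, and it rose by 0.63 (SE 0.20, limma adjusted p = 0.156). The call held under 25 of 29 alternatives and was lost with age as a covariate at 0.26, with array brightness at 0.35, within slide 1 at 0.22 and without normalization at 0.29. Of all probes 816 were called with age, 549 with array brightness and 783 within slide 1, against 2360 in the fit without them. Without normalization 34 of all probes were called higher. A call lost in these settings is therefore common, for this gene and for those named below. THRB, a nuclear receptor for thyroid hormone, was 9.02, 9.05, 9.01 and 9.11 in hypoxia and 8.83, 8.79, 8.83 and 8.73 in normoxia, without overlap. It rose by 0.25 (SE 0.07, limma adjusted p = 0.115) after quantile normalization, but was at -0.14 without normalization. It was also not called with age (0.18), with array brightness (0.21) or within slide 1 (0.21). OXT, the oxytocin precursor, rose by 0.40 (limma adjusted p = 0.155), OXTR, its receptor, by 0.43 (adjusted p = 0.241) and GALR1, a galanin receptor, by 0.27 (adjusted p = 0.252). The other probes of OXT and OXTR were not called, at 0.25 and 0.17 (adjusted p = 0.321 and 0.529). With age as a covariate none of the 3 genes was called, at 0.27, 0.32 and 0.11, nor with array brightness, at 0.25, -0.027 and 0.22, nor within slide 1, at 0.12, 0.19 and 0.080. Without normalization OXT was 0.0086 and OXTR 0.16, not called. OXTR also lost its call with the mean of its probes, at 0.30. The same held without hypoxia replicate 2 (0.29) or 4 (0.39) or normoxia replicate 1 (0.35) or 3 (0.41). GALR1 was at -0.13 without normalization, was not called with 75th percentile scaling at 0.25, and held its call under 12 of 29 alternatives. Leaving out hypoxia replicate 1, 2 or 4 or normoxia replicate 2, 3 or 4 gave it 0.21 to 0.27, not called. None of these genes passed adjustment over all probes.

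The chief regulators of GH were not called after quantile normalization of all arrays. SST, somatostatin, was 6.38 ± 0.11 against 6.56 ± 0.17 (SD, n = 4 each), near the dim end of the array. It was called lower under 4 of 29 alternatives, at -0.88 with the processed signal, -0.39 without normalization, -0.37 within slide 2 and -0.25 without normoxia replicate 2. Its receptor SSTR2 was 8.17 ± 0.19 against 8.03 ± 0.16 and differed by 0.14 (SE 0.12, limma adjusted p = 0.585), but by -0.26 without normalization. Within slide 2 it was called higher at 0.37. GHRH was 6.19 ± 0.07 in hypoxia and 6.64 ± 0.75 in normoxia (limma adjusted p = 0.497). TRHR, the receptor for thyrotropin-releasing hormone, which also acts on lactotrophs, differed by -0.0033 (SE 0.29, limma adjusted p = 0.997). The dopamine receptor DRD2 was not analysed here, since no probe was named for it.

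Beside GHRH and somatostatin, other genes used as markers of hypothalamic neurons were read in these arrays. Which cells made their RNA was not determined. The summed normalized signal of 7 measured markers of such neurons (AGRP, NPY, SST, TAC1, TAC3, PMCH and GHRH) was 1649 to 7802 in hypoxia and 2702 to 4027 in normoxia, where TAC1 was called higher and PMCH lower. That of 3 markers of the posterior lobe and its pituicytes (OXT, GFAP and AQP4) was 2710 to 3487 in hypoxia and 2272 to 2577 in normoxia. These sums did not overlap, and OXT was called higher. Of all single probes 18.1% were called and 9.95% did not overlap. OXT, at 10.86 and 10.46 on the log2 scale, is part of the sum, so its call and the lack of overlap are not separate results. The part of either marker set in the values of the regulators was not tested. The labelled tissue carried its own markers, since GH, PRL, POMC, TSHB, LHB and FSHB were all well over background.

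Downstream, 15 of 28 listed receptors, signalling genes and targets of GH and PRL had a retained probe, with 1 called higher, 0 lower and a median of 0.15. That is 6.67% called, against 18.1% of all probes. Each gene counts here by its brightest probe. Another probe of IGF1R was called higher at 0.40 (limma adjusted p = 0.109), beside 0.17 and -0.031 on the others. Another probe of IGF2R was called lower at -0.28 (limma adjusted p = 0.169), beside -0.19 on the brightest. GHR, the GH receptor, was 8.08 ± 0.27 against 8.05 ± 0.13 (SD, n = 4 each) and differed by 0.031 (SE 0.14, limma adjusted p = 0.926), but by -0.37 without normalization, where it was called lower. The 4 probes of PRLR, the PRL receptor, went opposite ways, at 0.19, 0.18, -0.15 and -0.17, none called. Those at 0.19 and 0.18 were well above background on 8 arrays, and those at -0.15 and -0.17 on 4 and 2 arrays. The brightest PRLR probe was called higher under 5 of 29 alternatives. It was at 0.33 with an offset of 0, 0.21 with median spot signals, 0.36 with the deposited values, 0.19 with no filter and 0.24 without normoxia replicate 2. IGF1 was 7.27 ± 0.53 against 6.89 ± 0.24 (limma adjusted p = 0.463), and STAT5A was 7.24 ± 0.09 against 7.18 ± 0.20 (adjusted p = 0.770). IGFBP2, a carrier of insulin-like growth factors, was 15.85 ± 0.18 against 15.44 ± 0.23 (SD, n = 4 each) and rose by 0.41 (SE 0.13, limma adjusted p = 0.157). Its call was lost with age as a covariate at 0.095, with array brightness at 0.063, within slide 1 at 0.38, with the deposited values at 0.28 and without normalization at 0.11.

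For comparison with other secretory products, the list of other anterior lobe hormones and markers had 8 of 11 genes retained, with 1 called higher, 0 lower and a median of 0.057, which 75th percentile scaling moved to 0.23. That is 12.5% called, against 18.1% of all probes. FSHB, the follitropin beta chain, was 14.99, 14.91, 15.06 and 15.20 in hypoxia and 14.25, 14.37, 15.19 and 14.20 in normoxia. Normoxia replicate 3 lay among the hypoxia arrays, and FSHB rose by 0.54 (SE 0.20, limma adjusted p = 0.205). The call held under 20 of 29 alternatives. It was lost with age as a covariate at 0.073, with array brightness at 0.39, within slide 2 at 0.36 and without normalization at 0.25. Array weights (0.46) lost it too, as did leaving out hypoxia replicate 4 (0.49) or normoxia replicate 1 (0.46), 2 (0.50) or 4 (0.44). LHB, the lutropin beta chain, differed by 0.39 (SE 0.18, limma adjusted p = 0.287), and was called higher with 75th percentile scaling at 0.52, without hypoxia replicate 1 at 0.55 and without normoxia replicate 1 at 0.47. Within slide 1 it was -0.040 and within slide 2 it was called higher at 0.81. POMC differed by 0.019 (SE 0.08, limma adjusted p = 0.923). PCSK1, a convertase that cleaves prohormones in granules, was 8.59, 9.37, 9.37 and 9.30 in hypoxia and 8.36, 8.54, 8.64 and 8.53 in normoxia, and rose by 0.64 (SE 0.17, limma adjusted p = 0.117). It was not called with array brightness at 0.31, within slide 1 at 0.53, without normalization at 0.24 or with age at 0.62. In each of these settings fewer of all probes were called higher. CPE, the carboxypeptidase of the same pathway, differed by -0.040 (SE 0.10, limma adjusted p = 0.856). PCSK1 and CPE were the only retained genes of the 19 in the granule list. With 1 of 2 called, a median of 0.30 and 18.1% of all probes called, these 2 genes do not describe that list.

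**Figure D4:**
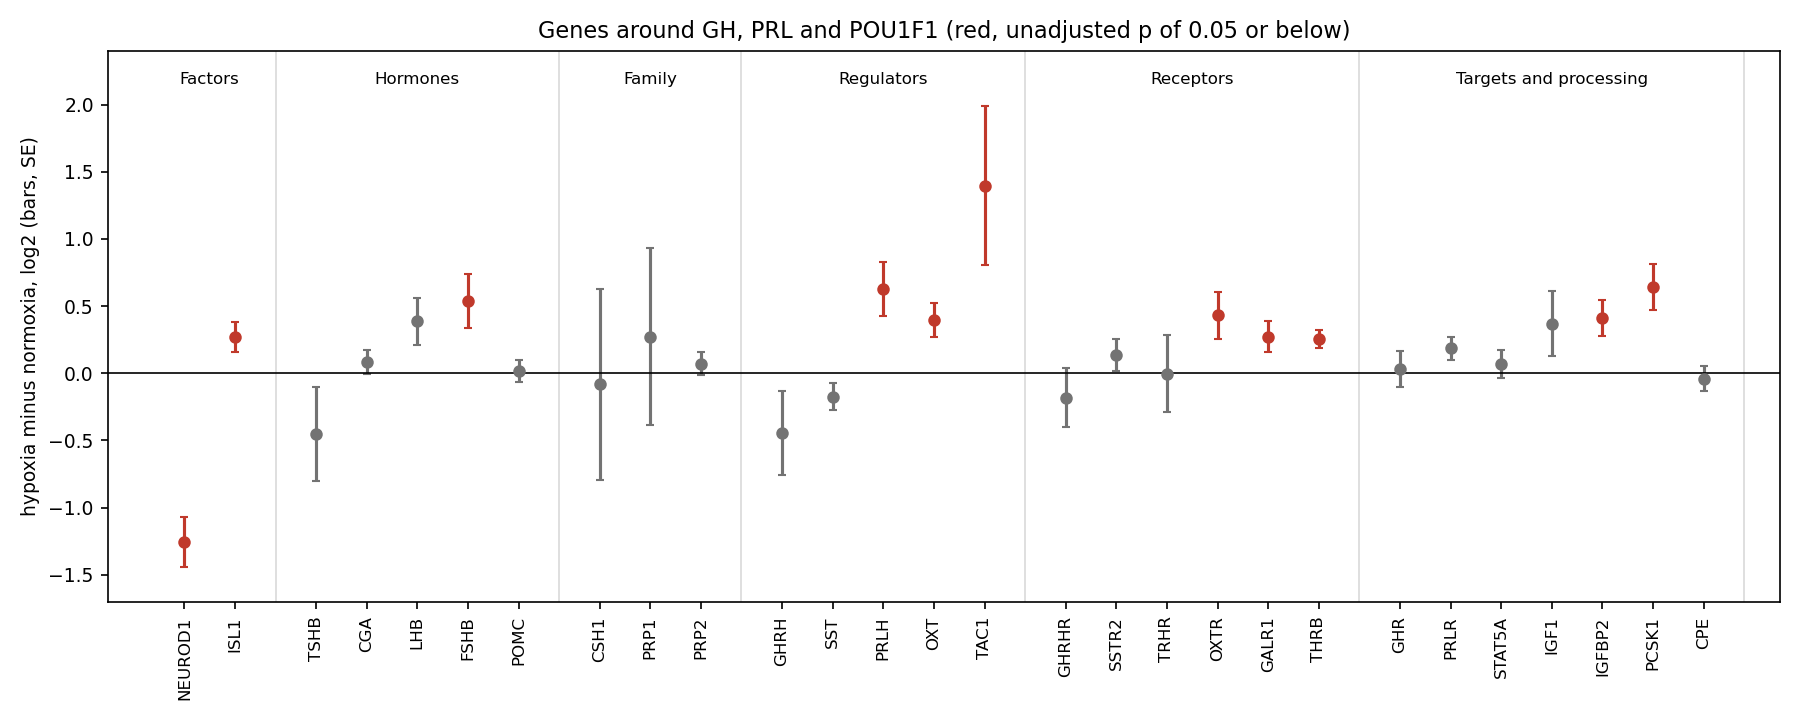
Hypoxia minus normoxia on the log2 scale after quantile normalization (vertical axis, bars for the SE) for 28 of the 54 list genes with a retained probe, 1 point per gene, grouped by role: all 11 called genes (red) and 17 others described in the text, so called genes are over-represented. Of the called genes, 10 were higher and NEUROD1 lower, where 18.1% of all probes were called, 8.29% higher and 9.76% lower. POMC, CGA, TRHR, CSH1, PRP2, GHR, STAT5A and CPE lie within 0.10 of 0.

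The genes whose values over the 8 arrays were most like those of each probe, out of 907 named genes compared by Pearson's r, are given as a description, up to 5 for each probe. They share arrays, slide and normalization with the probe, and no test was made. For GH A_70_P039746 they were RPS26, ERP29, TLR2, LAT2 and IDH1 (r 0.92 to 0.86, Spearman's rho 0.71 to 0.93), and for GH A_70_P039747 they included LOC100037699, BAMBI, PSMB7 and EP4C (r 0.95 to 0.82, rho 0.83 to 0.92). For PRL A_70_P030241 they included ALDH1A1, POU1F1, MYD88 and PPP2CA (r 0.90 to 0.85, rho 0.76 to 0.98), and for PRL A_70_P030242 they were SLC25A26, CAPN1, ISG15, MRPL32 and SFTPB (r 0.83 to 0.80, rho 0.51 to 0.93). For POU1F1 A_70_P039252 they included PRL, HSPA5, RPL6 and ALDH1A1 (r 0.89 to 0.82, rho 0.71 to 0.90), and for POU1F1 A_70_P039251 they included TGFB3, LOC100101238, CYP3A24 and SLC25A10 (r 0.92 to 0.81, rho 0.74 to 0.98). Both probes of a gene never named the same gene, although they read 1 mRNA. PRL A_70_P030241 and POU1F1 A_70_P039252 named each other, at r = 0.89 and rho = 0.76.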

How the data were processed

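The authors deposited, per the file headers, the intensity of every spot on each array from the scanner software (Agilent Feature Extraction 10.1.1.1, per the submitters' processing notes). They also deposited log2 values, which limma made from background-corrected and quantile normalized spots after dim probes were dropped. Here R 4.3.3 and limma 3.58.1 corrected the mean spot intensity by normexp with an offset of 50 and quantile normalized the arrays. Control and outlier spots were left out, saturated spots kept and spots of a probe averaged. A probe was retained if, on 3 arrays or more, it reached the 95th percentile of that array's negative controls times 1.1. The offset and this percentile are not given in the sources used here. Groups came from the labels and were compared by lmFit and eBayes over all retained probes, with Benjamini-Hochberg adjustment. Single probes were compared by exact permutation of the 8 arrays. The quantile step and the limma fit were tested on simulated data with independent noise. Background correction, filter, spot averaging and the permutation test were not part of that simulation. Alternatives changed the background offset, spot signal, normalization, filter, covariates (age, sex, array brightness), slide and replicate block, probes per gene, array weights and the arrays used, as well as taking the deposited log2 values. A gene's value is that of its brightest retained probe, and 1658 probes had a gene name. Every probe of the 3 genes is named, with from each list at most the 5 called genes of smallest p, a set of 21 key genes where measured, and for each probe the 5 genes of highest r, apart from a few not reported here. Genes named for a pattern of probes or for cell markers, such as GHRH, PRP2, CPE, TAC1, IGF1R and IGF2R, were added after their values were seen. The members and lists were chosen with earlier results of these data known. Blood gases and quantitative PCR were not analysed here.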

Additional observations from a re-analysis of the deposited data

Results flagged for a closer look

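On the raw log2 scale PRL probe A_70_P030242 was 18.46 on hypoxia replicate 3, far below the other hypoxia arrays at 18.74 to 18.80. After normalization SST was 6.54 on hypoxia replicate 3 against 6.32 to 6.34 on the others, and IGF1 was 8.05 on that array against 6.98 to 7.02. PCSK1 was 8.59 on hypoxia replicate 1 against 9.30 to 9.37 on the others. These 4 arose among 72 groups of 4 arrays examined, where chance alone gives about 1 in 20.

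The spike-in control transcripts ran opposite to the gene spots. They were left out of the main comparison and used only in an alternative that kept control spots in the quantile step. The brightest of 10 was 16.58 ± 0.16 in hypoxia and 15.73 ± 0.51 in normoxia on the raw log2 scale (SD, n = 4 each), a difference of 0.84 (exact permutation test, two-sided, p = 0.0286). All 10 had a higher mean in hypoxia, and for 3 every hypoxia array lay above every normoxia array. Their part in the values of GH, PRL and POU1F1 was not tested.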

How the results depend on the processing

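The 6 probes of GH, PRL and POU1F1 gave 174 values under 29 alternatives, of which 8 were called (GH higher 6 times, POU1F1 lower 2 times) and 24 changed sign, none of these called. The cause was not tested. With 75th percentile scaling GH was 0.29 and 0.31, PRL A_70_P030241 0.22, the slide interactions (slide 2 minus slide 1, none called) 0.36 and 0.45 for GH, 0.41 and 0.28 for PRL and 0.28 and 0.059 for POU1F1 A_70_P039252 and A_70_P039251, and the median of other hormones 0.23. With that scaling and without normoxia replicate 1, GH was 0.29 and 0.32, PRL A_70_P030241 0.21, TSHB 0.052 and STAT5A -0.018. With the processed signal GH was 0.31 and 0.35, PRL A_70_P030241 0.23, GHR -0.019, STAT5A -0.0051 and TRHR 0.015. Without normalization 5870 probes were called (34 higher, 5836 lower), with GH -0.097 and -0.071, PRL A_70_P030242 -0.12, POU1F1 -0.43 and -0.47, CGA -0.010, GALR1 -0.13, GHR -0.37, ISL1 -0.13, POMC -0.12, PRLR -0.12, SSTR2 -0.26, STAT5A -0.25 and THRB -0.14.

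With array brightness as a covariate 549 probes were called, against 2360, with GH A_70_P039747 -0.018, PRL A_70_P030242 -0.15, CGA -0.0014, GHR -0.0084, GHRHR 0.040, LHB -0.013, OXTR -0.027, SSTR2 -0.17, TRHR 0.058 and TSHB 0.59. With age 816 were called, with POMC -0.021, SSTR2 -0.093, STAT5A -0.092 and TRHR 0.65. Within slide 1, 783 were called, with GH A_70_P039747 -0.0087, CGA -0.093, GHR -0.11, LHB -0.040, POMC -0.067, SST 0.023, SSTR2 -0.093 and TRHR 0.12. Within slide 2 GH A_70_P039746 was -0.00018, GHRHR 0.049, POU1F1 A_70_P039252 0.019 and STAT5A -0.036. PRL A_70_P030242 was -0.012 with median spot signals (where the slide interaction of GH A_70_P039747 was -0.0085) and likewise -0.012 with the deposited values. Without saturated spots it was -0.061, POMC -0.028 and the raw difference of GH A_70_P039747 0.022. With the mean of a gene's probes PRL was -0.00037, TRHR 0.13 and the median of receptors and targets 0.031, and with cyclic loess TRHR was 0.013.

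Leaving out each array in turn gave 0.0018 to 0.030 and -0.016 to 0.050 for GH, -0.058 to -0.0057 and -0.043 to 0.11 for PRL, and -0.17 to 0.042 for POU1F1 A_70_P039252 and -0.16 to 0.063 for A_70_P039251, with 1591 to 2832 probes called. Raw differences ranged from -0.15 to -0.0089 for GH A_70_P039746, -0.13 to 0.022 for A_70_P039747, -0.58 to -0.38 for POU1F1 A_70_P039252 and -0.54 to -0.30 for A_70_P039251. GHR ranged from -0.067 to 0.15, POMC from -0.023 to 0.055, STAT5A from -0.0094 to 0.15 and TRHR from -0.26 to 0.20. The list medians ranged from -0.022 to 0.68 for the family and from -0.22 to -0.0027 for the list of transcription factors and POU1F1 products.

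Each replicate number holds 1 array of each group, so a replicate block cannot move the 6 differences (GH 0.018 and 0.0089). With it 2079 probes were called. Same-numbered arrays correlated at -0.052, 0.017, 0.12 and -0.10 in their deviations from the group means. So few values cannot decide whether these arrays were paired. The number of arrays limits the precision, and GH and PRL signals near the upper limit are bounded on normoxia replicate 1.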
